A study of Mus musculus with 12 samples.

Results

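RNA levels in Smad4 knockout (KO) CD4+ T cells were set against those in wild-type (WT) CD4+ T cells, 3 h into culture with interleukin 6 (IL-6) while the receptor of TGF-β was inhibited. The comparison rests on 3 KO and 3 WT libraries of the 12 analysed. It covers the 12436 of 24538 gene rows whose deposited log2 value averaged at least 3 over the 12 libraries. Art4 and Bcl2l14, with means of 3.00, lay just inside that limit, and Mir1964 and Casq1, with means of 2.99, lay just outside it. KO cells came from CD4cre;Smad4fl/fl mice, in which a Cre recombinase under the control of Cd4 cuts the floxed Smad4 gene. The label of the WT cells names neither a Cre nor a floxed allele, so effects of the Cre and of the loss of Smad4 cannot be told apart. Cd4 is switched on in the thymus, so 3 h counts from the start of treatment and not from the deletion. All cells were labelled as taken from the spleen and lymph nodes of female C57BL/6 mice and were activated before RNA was made. No age is given. The labels do not say whether the libraries of a group came from separate mice, so p-values measure the spread between these libraries. Levels of Xist and Ddx3y, given below, part replicate 2 from replicates 1 and 3 in each group, so the spread includes that difference. The spread between replicates 1 and 3 may be technical. A further 3 KO and 3 WT libraries from 12 h of the same treatment helped to estimate the spread and show the same genes at a later time.

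SMAD4 is the partner with which the receptor-activated SMAD proteins enter the nucleus when TGF-β or a bone morphogenetic protein (BMP) binds its receptor. SKI and its relative SnoN, encoded by Skil, are corepressors that bind SMAD proteins on DNA, and TGF-β signalling removes them. IL-6 acts through STAT3 and, together with TGF-β, drives helper T cells to become TH17 cells, which make interleukin 17. The title of the study concerns the suppression that SKI and SMAD4 exert on this step. Whether that suppression was in place in these cultures was not tested. The comparison at 3 h shows which genes differed with the Smad4 genotype early in culture, while the TGF-β receptor was inhibited. No library from before the treatment was analysed. Differences already present before culture thus cannot be told apart from those that arose in it.

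Values are on the log2 scale as deposited, and the depth of each library is unknown. Smad4 itself stood at 11.66, 11.62 and 11.66 in the KO libraries, against 11.65, 11.58 and 11.71 in the WT libraries, and its difference was 0.00 ± 0.06 (SE, n = 3 per group, limma adjusted p = 0.993). The 2 groups overlapped. A floxed gene loses only part of its transcript, so a value over the whole gene does not check the genotype, and every direction below rests on the labels of the libraries. Ski differed by -0.00 ± 0.06 (adjusted p = 0.995). The T cell marker genes, among them the CD3 chains, summed to between 17.25 and 17.36 in KO libraries and between 17.25 and 17.31 in WT libraries, and the CD4 T cell markers to between 13.48 and 13.65 in KO and between 13.47 and 13.57 in WT. Of the 12 myeloid and dendritic markers 8 lay below the mean of 3, and 3 of 6 erythroid and platelet markers, Hbb-bs, Hba-a1 and Pf4, were listed at 0. The replicate 2 library of each group held Xist at 5.70 or less and the Y-linked Ddx3y at 12.34 or more. The other 8 libraries held Xist at 15.08 or more and Ddx3y at 2.77 or less, although every mouse is labelled female.

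At 3 h 130 genes, or 1.05% of those tested, differed between KO and WT at an adjusted p under 0.05 (limma, Benjamini-Hochberg over 12436 genes). KO libraries were higher for 37 of them (0.298%) and lower for 93 (0.748%). Among the genes called, the falls were the larger changes: 45 of 93 falls reached 2-fold, against 5 of 37 rises. A gene with a wide spread is called only at a large difference. The SD in WT had a median of 0.45 for the falls and 0.09 for the rises, so the sizes of the 2 sets are not alike in selection. The median difference was -0.99 for the falls, 0.55 for the rises and -0.00 for all genes. Over all genes, the 3 KO values lay above all 3 WT values for 702 (5.64%) and below them for 745 (5.99%). Among the genes called, the groups were apart in 37 of 37 rises and in 92 of 93 falls, with Il18r1 as the exception. KO minus WT had the same sign within all 3 pairs of equally numbered libraries for each of the 130 genes, which were called on these same values, and for 3942 of all 12436 genes. With the replicate number as a block, 200 genes were called, 56 higher and 144 lower. The deviations of equally numbered libraries correlated positively, but the numbers are not shown to mark pairs.

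**Figure D1:**
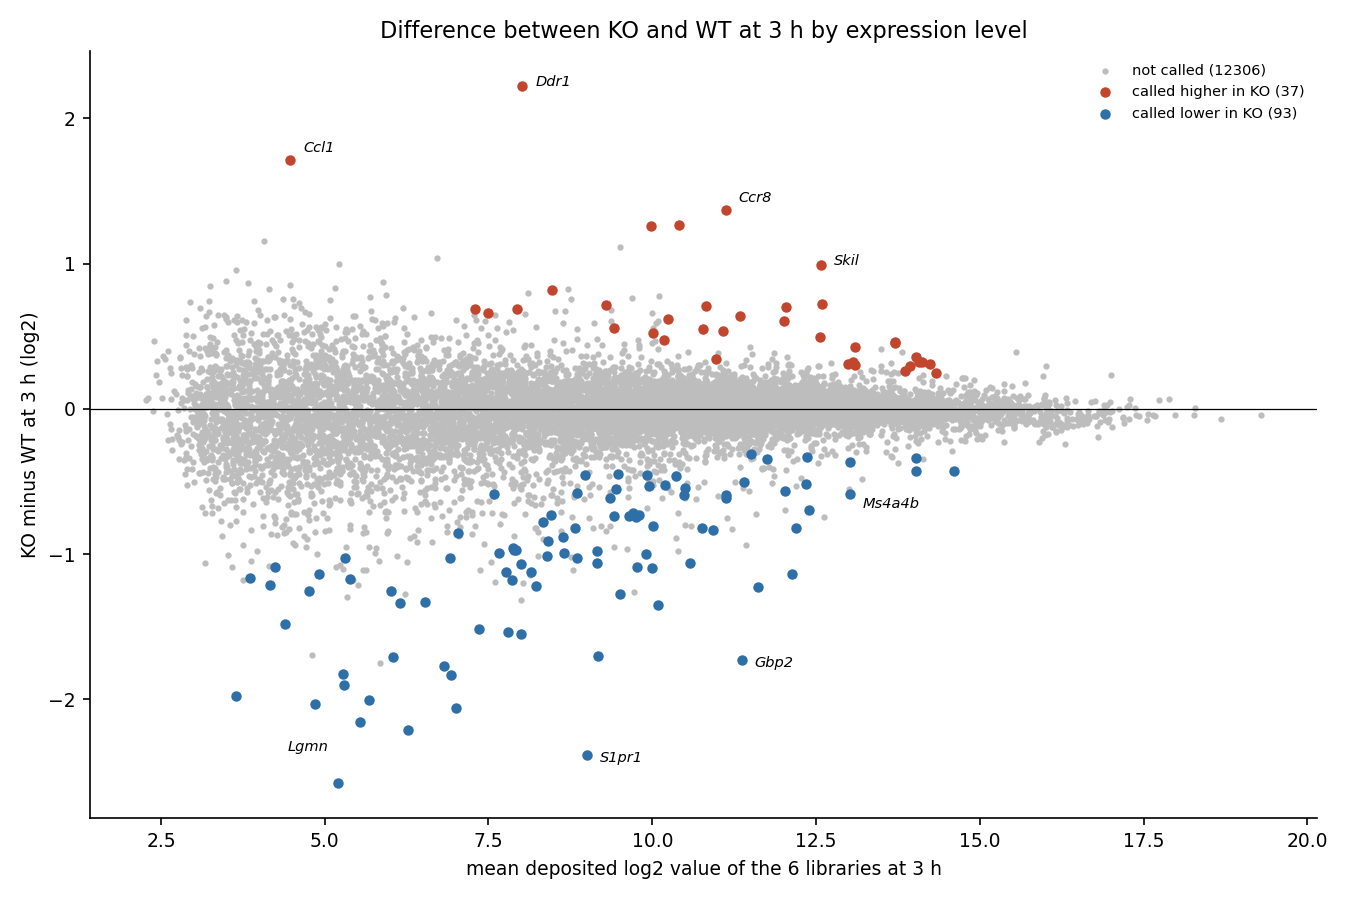
Difference between KO and WT at 3 h (log2, vertical axis) against the mean deposited log2 value of the 6 libraries (horizontal axis) for 12436 genes, with the 37 genes called higher in red and the 93 called lower in blue. Ddr1, Ccl1 and Ccr8 are among the largest rises, and S1pr1 and Lgmn among the largest falls in KO.

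These counts depended on single libraries. Without KO replicate 1, 2 or 3 at 3 h, 22, 58 and 77 genes were called, and without WT replicate 1, 2 or 3, 36, 261 and 33. Leaving out KO replicate 2, WT replicate 2 or WT replicate 3 of the 12 h libraries gave 66, 71 and 83. Rises and falls did not shrink alike. Without WT replicate 1, 21 rises and 15 falls were called, without WT replicate 3, 18 and 15, and without WT replicate 2, 36 and 225. Of the 53 genes called and named by the rule set out in the methods, 48 were lost where the prior variance had no trend and 48 where low genes were kept. Ccr8, Skil, Pmepa1, Fmnl3 and Ms4a4b were called under all 24 alternatives.

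Among the largest rises was the pair of a chemokine receptor and its ligand, Ccr8 and Ccl1, both known as genes that TGF-β or SMAD proteins act on in T cells. Ccr8 encodes a receptor found on TH2 and regulatory T cells. It measured 11.87, 11.79 and 11.76 in KO libraries, against 10.36, 10.49 and 10.45 in WT libraries. All KO values lay far above all WT values, and the rise of 1.37 ± 0.10 (SE, n = 3 per group), or 2.59-fold, had the smallest adjusted p of all genes (3.01e-06). Ccl1, which encodes the chemokine that binds this receptor, measured 5.11, 5.03 and 5.86 in KO, against 3.00, 3.83 and 4.03 in WT. Both groups were low and spread, and the rise was 1.72 ± 0.34, or 3.29-fold (adjusted p = 0.0288). The call of Ccl1 ended without KO replicate 1 or 3 or WT replicate 1 at 3 h, and without the replicate 2 libraries, with adjusted p from 0.0129 to 0.189 over the alternatives. On GRCm38 Ccr8 lies on chromosome 9 at 120092114 to 120094906 and Ccl1 on chromosome 11 at 82176657 to 82305690.

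The 250 bases before the RefSeq gene start are shown for the rises of Ccr8 and Fmnl3 and for the fall of Ms4a4b, the named genes of this kind whose calls held under every alternative and whose promoters were in the sequence table. Capitals mark CAGAC and its reverse complement GTCTG, the short core to which SMAD proteins bind. The windows are chr9:120091883-120092132 on the plus strand, chr15:99370483-99370732 on the minus strand and chr19:11443308-11443557 on the plus strand of GRCm38.p6.
Ccr8: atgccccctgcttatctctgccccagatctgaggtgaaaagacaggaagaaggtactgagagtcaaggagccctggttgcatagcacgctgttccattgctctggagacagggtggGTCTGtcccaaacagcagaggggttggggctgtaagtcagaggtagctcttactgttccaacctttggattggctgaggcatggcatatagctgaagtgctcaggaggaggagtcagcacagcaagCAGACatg
Fmnl3: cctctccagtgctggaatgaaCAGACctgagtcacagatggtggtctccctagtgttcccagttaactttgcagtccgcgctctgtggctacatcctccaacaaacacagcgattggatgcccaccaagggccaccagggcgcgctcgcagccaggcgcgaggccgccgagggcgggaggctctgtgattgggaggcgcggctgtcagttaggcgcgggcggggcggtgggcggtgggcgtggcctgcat
Ms4a4b: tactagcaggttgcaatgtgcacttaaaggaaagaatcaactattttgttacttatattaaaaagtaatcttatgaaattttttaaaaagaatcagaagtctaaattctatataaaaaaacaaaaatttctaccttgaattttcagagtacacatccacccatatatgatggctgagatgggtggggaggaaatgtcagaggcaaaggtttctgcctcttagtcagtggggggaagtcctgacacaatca
The window of Ccr8 held the core 2 times, once on each strand, that of Fmnl3 held it 1 time and that of Ms4a4b held it 0 times. Such a short word is common: it was found on either strand in 45.6% of the 9561 tested genes with a promoter in the table. It was in 15 of the 25 genes called higher that had a promoter there and in 22 of the 70 called lower. The palindrome GTCTAGAC was found in 0.241% of all 9561, in 0 of 25 rises and in 1 of 70 falls, Tnfaip3. TGTTTAC, a core bound by FOXO proteins, was in 2.66% of all, in 0 of 25 rises and in 2 of 70 falls, Gbp3 and Txnip. The first 4 letters of the palindrome, GTCT, are also those of GTCTG. A match is a word in the sequence and was not tested for binding.

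Several genes of the SMAD pathway and its feedback rose in KO cells. Skil, the gene of the corepressor SnoN and a textbook SMAD target, measured 13.15, 12.88 and 13.16 in KO libraries, against 11.90, 12.09 and 12.24 in WT libraries. The groups were well apart, and the rise was 0.99 ± 0.10 (SE of the limma fit, n = 3 per group), a 1.98-fold change (adjusted p = 0.000137). Pmepa1, whose membrane protein holds receptor-activated SMADs away from the receptor, measured 12.29, 12.33 and 12.33 in KO, against 11.70, 11.75 and 11.68 in WT. The libraries of each group nearly coincided, and the rise was 0.60 ± 0.07, or 1.52-fold (adjusted p = 0.00105). Smad3, the receptor-activated SMAD of the TGF-β branch, measured 14.32, 14.27 and 14.23 in KO, against 13.94, 13.97 and 13.95 in WT, a rise of 0.33 ± 0.06 (adjusted p = 0.0198). Bmpr2, the type II BMP receptor, measured 8.93, 8.71 and 8.98 in KO, against 7.86, 8.02 and 8.29 in WT, a rise of 0.82 ± 0.14 (adjusted p = 0.0160). The calls of Smad3 and Bmpr2 ended under 7 and 5 of the 24 alternatives.

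Of 31 tested TGF-β and SMAD target genes 6 rose, 0 fell and 25 were not called, and the list's median difference was 0.18, beside -0.00 for all genes. The 6 were Ccl1, Ccr8, Skil, Pmepa1, Smad3 and Bhlhe40, a helix-loop-helix repressor that rose by 0.26 ± 0.05 (adjusted p = 0.0353) and is named here after its value was seen. In 11 of the 31 the KO values lay above all WT values, and in 0 below, beside 5.64% and 5.99% of all genes. This list and those below were drawn up with earlier results of these data known. Their counts beside all genes are thus a description. Of all genes 0.298% were called higher. The 6 genes do not act one way on the pathway: Skil and Pmepa1 restrain SMAD signalling and Smad3 carries it. Of 27 pathway components 3 rose and 0 fell (median 0.05), and these were Skil, Bmpr2 and Smad3. Skil and Smad3 stand in both lists. The counts were 3 of 31 and 1 of 27 without KO replicate 1 at 3 h, and 4 and 1 without WT replicate 1. Of the 31 targets 9 were called higher with the replicate block. The added 3 were Nt5e, Klf10 and Lrig1. Nt5e, which encodes the ectoenzyme CD73, had a difference of 1.04 ± 0.28 (adjusted p = 0.105 without the block and 0.0427 with it, and 0.0371 to 0.418 over the alternatives). Klf10, a zinc finger repressor induced by TGF-β, differed by 0.68 ± 0.16 (adjusted p = 0.0639 and 0.0228, and 0.0228 to 0.331), and Lrig1, a restrainer of growth factor receptors, by 0.31 ± 0.08 (adjusted p = 0.0981 and 0.0256, and 0.00926 to 0.303).

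**Figure D2:**
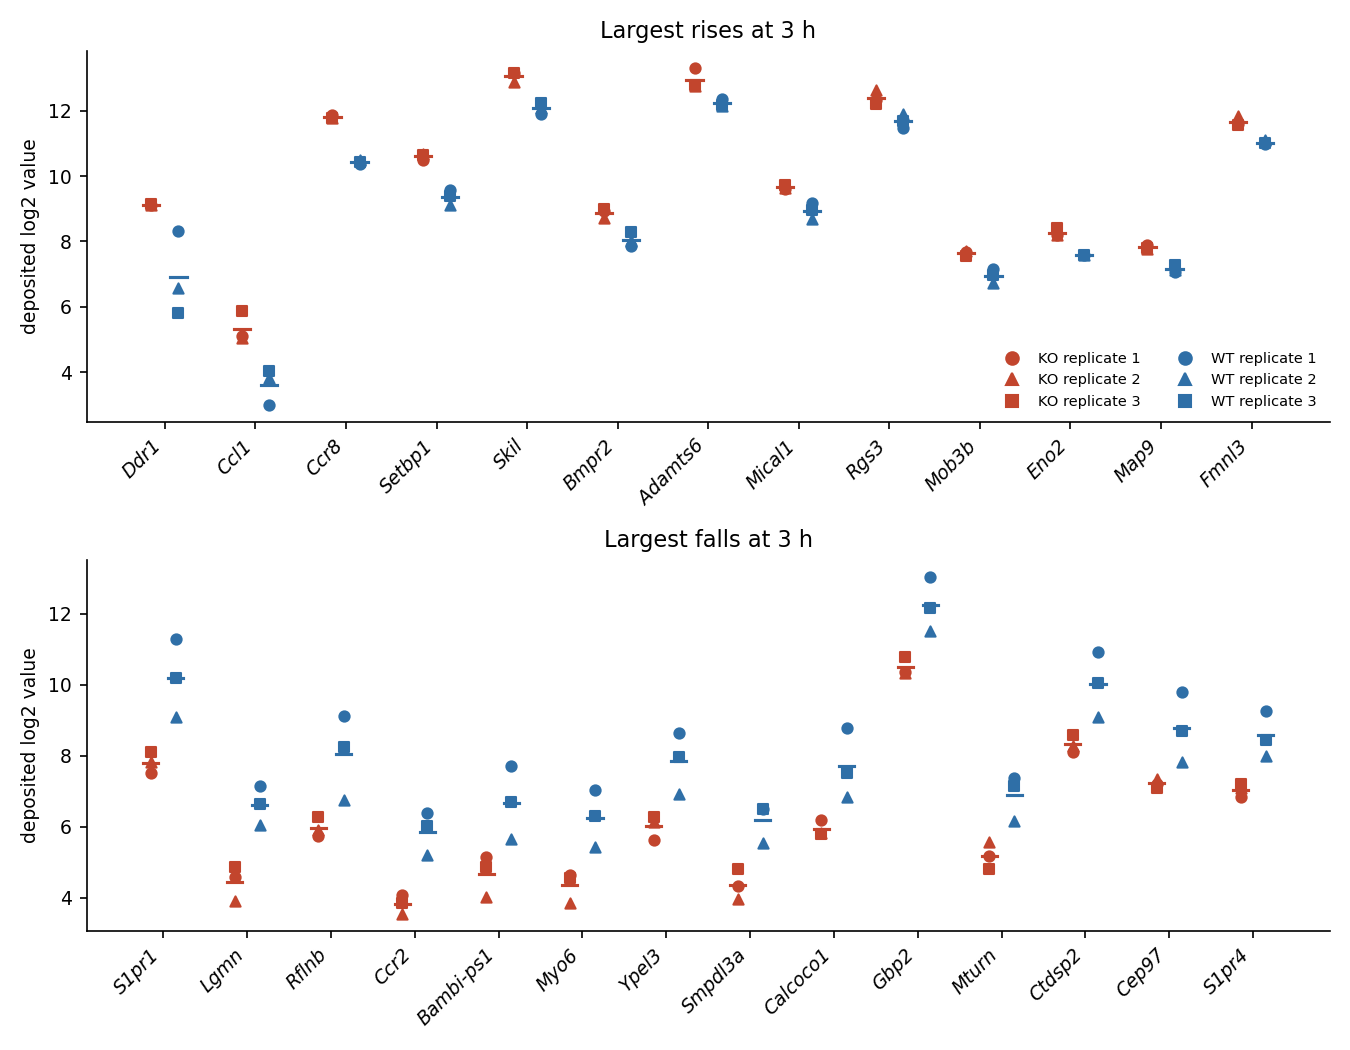
Deposited log2 values (vertical axes) of the named genes with the largest rises (upper panel) and falls (lower panel) at 3 h, with KO libraries in red left of WT libraries in blue, marker shapes for replicates 1 to 3 and bars for group means. These genes were chosen for groups that do not overlap; KO values lie close together for most falls, while WT replicate 1 is mostly the highest and WT replicate 2 the lowest of its group.

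Other rises were in genes of adhesion, matrix and growth factor signalling. Ddr1, a receptor tyrosine kinase activated by collagen, had the largest rise of any called gene. It measured 9.12, 9.11 and 9.16 in KO libraries, against 8.31, 6.59 and 5.81 in WT libraries, a rise of 2.23 ± 0.44 (SE of the limma fit, n = 3 per group), a 4.68-fold change (adjusted p = 0.0292). The KO values were nearly equal and the WT values were widely spread, with replicate 1 the highest. The call of Ddr1 ended without any 1 of the KO libraries at 3 h, without WT replicate 3 and without the replicate 2 libraries (adjusted p from 0.000492 to 0.219 over the alternatives). Adamts6, a secreted metalloprotease, measured 13.32, 12.75 and 12.79 in KO, against 12.37, 12.15 and 12.17 in WT, and rose by 0.72 ± 0.12 (adjusted p = 0.0114). Pdgfb, a chain of platelet-derived growth factor, rose by 0.54 ± 0.11 (adjusted p = 0.0288). Of 29 tested adhesion and matrix genes 3 rose and 2 fell, beside 0.298% and 0.748% of all genes, and the median was 0.04. The falls were Itgb3, the integrin β3 chain (by 1.51 ± 0.26, adjusted p = 0.0155), and Cd226, a costimulatory adhesion receptor (by 0.59 ± 0.13, adjusted p = 0.0399). The calls of Adamts6, Pdgfb, Itgb3 and Cd226 ended under 4, 7, 4 and 19 of the 24 alternatives. The rises and falls in this list were 1 and 0, 1 and 1, and 2 and 1 without KO replicate 1, 2 or 3 at 3 h. Without WT replicate 1, 2 or 3 they were 3 and 0, 3 and 5, and 0 and 1.

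A further set of rises encodes proteins that shape the actin and microtubule skeleton. Fmnl3, a formin that builds actin filaments, measured 11.59, 11.84 and 11.56 in KO libraries, against 10.97, 11.10 and 11.01 in WT libraries, and rose by 0.64 ± 0.08 (limma adjusted p = 0.00194). Mical1, an enzyme that oxidises and takes apart actin filaments, measured 9.60, 9.65 and 9.71 in KO, against 9.17, 8.69 and 8.96 in WT, and rose by 0.72 ± 0.14 (adjusted p = 0.0288). In neither gene did the groups overlap. Vasp, which keeps filament ends growing, rose by 0.31 ± 0.07 (adjusted p = 0.0357), and Map9, a microtubule-associated protein, by 0.66 ± 0.13 (adjusted p = 0.0296). The calls of Mical1, Vasp and Map9 ended under 8, 14 and 13 of the 24 alternatives. Of 36 tested cytoskeleton and motor genes 2 rose, Mical1 and Vasp, and 2 fell, beside 0.298% and 0.748% of all genes. The median was -0.02, and with the replicate block Evl was called lower too. Fmnl3 and Map9 are not in this list. The falls were Rflnb, which binds the actin crosslinker filamin, and Myo6, a myosin that walks towards the minus end of filaments. Rflnb measured 5.75, 5.90 and 6.28 in KO, against 9.11, 6.76 and 8.23 in WT, and fell by 2.06 ± 0.40 (adjusted p = 0.0284). Myo6 measured 4.64, 3.85 and 4.55 in KO, against 7.03, 5.42 and 6.29 in WT, and fell by 1.90 ± 0.34 (adjusted p = 0.0183). In this list 0 genes were called without KO replicate 1 or 2 at 3 h, without KO replicate 3 the count was 0 rises and 2 falls, and without WT replicate 1, 2 or 3 it was 1 and 0, 1 and 3, and 0 and 1. Without replicate 2 of KO, or replicate 2 or 3 of WT, at 12 h it was 1 and 2.

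Among signalling genes, Rgs3, which shortens G-protein signals, measured 12.34, 12.63 and 12.20 in KO libraries, against 11.48, 11.90 and 11.69 in WT libraries, and rose by 0.70 ± 0.12 (limma adjusted p = 0.0125). It was the 1 gene called of 23 tested regulators of G-protein signalling and receptor desensitisation, beside 1.05% of all genes. Its call ended without KO replicate 1 or WT replicate 1 at 3 h (adjusted p from 0.00192 to 0.144). With the replicate block Rgs1 was called higher too and Pde3b lower. Tnfrsf1b, the second receptor of tumour necrosis factor, measured 13.91, 13.98 and 13.93 in KO, against 13.35, 13.59 and 13.53 in WT, and rose by 0.45 ± 0.09 (adjusted p = 0.0284). It was the 1 rise among 33 tested TNF receptor family and costimulation genes, beside 0.298% of all genes called higher and 0.748% lower. Cd226 was the 1 fall in that list, and Tnfrsf26 was called lower with the replicate block. The call of Tnfrsf1b ended without any 1 of the 3 KO libraries at 3 h and without WT replicate 1 or 3 (adjusted p from 0.00192 to 0.182).

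Among the rises were also nuclear genes. Setbp1, whose protein binds the histone-binding protein SET, measured 10.49, 10.68 and 10.65 in KO libraries, against 9.56, 9.11 and 9.38 in WT libraries, and rose by 1.26 ± 0.20 (limma adjusted p = 0.00991). Of 18 tested TH17 genes 3 rose, beside 0.298% of all genes, 0 fell and 15 were not called, with a median of 0.05. Runx1, a transcription factor used in several helper T cell fates, measured 13.19, 13.08 and 13.18 in KO, against 12.84, 12.88 and 12.80 in WT, and rose by 0.31 ± 0.06 (adjusted p = 0.0198). Rbpj, the DNA-binding partner of Notch, measured 14.14, 14.01 and 14.10 in KO, against 13.66, 13.81 and 13.87 in WT, and rose by 0.30 ± 0.07 (adjusted p = 0.0477). The calls of Setbp1, Runx1 and Rbpj ended under 3, 7 and 19 of the 24 alternatives. Maf, a transcription factor of several helper T cell types, differed by 0.66 ± 0.16 (adjusted p = 0.0706), and Csf2, the gene of the cytokine GM-CSF, by -0.69 ± 0.23 (adjusted p = 0.262). Nfkbiz, an atypical IκB protein, was called lower with the replicate block. A single TH17 gene was called without KO replicate 1 or 3 or WT replicate 1 or 3 at 3 h.

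Other called rises, named here after their values were seen, included 2 subunits of the Mediator complex, Med14 (0.46 ± 0.08, limma adjusted p = 0.0168) and Med7 (0.34 ± 0.08, adjusted p = 0.0478). Kdm1a, a histone demethylase, rose by 0.30 ± 0.05 (adjusted p = 0.0160), and Mta3, a subunit of the NuRD repressor complex, by 0.47 ± 0.10 (adjusted p = 0.0321). Hnrnpll, a splicing regulator of T cells, rose by 0.43 ± 0.07 (adjusted p = 0.0114). Rassf5, which links the small GTPase Rap1 to integrin adhesion, rose by 0.33 ± 0.05 (adjusted p = 0.00709), and Rcan3, of a family that inhibits calcineurin, by 0.52 ± 0.11 (adjusted p = 0.0398). Litaf rose by 0.62 ± 0.10 (adjusted p = 0.00741). Eno2, an enolase of glycolysis, was among the largest rises at 0.69 ± 0.15 (adjusted p = 0.0463), as was Mob3b at 0.69 ± 0.16 (adjusted p = 0.0477), and these 2 calls ended under 18 and 19 of the 24 alternatives. Those of Med7, Rcan3 and Mta3 ended under 18, 13 and 11. Those of Kdm1a, Med14, Hnrnpll, Rassf5 and Litaf ended under 5, 4, 4, 2 and 1.

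Large falls included genes of lymphocyte traffic and of the resting T cell. In such bulk samples fewer cells of one kind and less RNA per cell cannot be told apart. S1pr1, the receptor by which T cells follow sphingosine 1-phosphate out of lymphoid organs, measured 7.50, 7.82 and 8.10 in KO libraries, against 11.29, 9.09 and 10.20 in WT libraries. Every KO value lay below every WT value, the WT values were spread wider than the KO values, and S1pr1 fell by 2.38 ± 0.42 on the log2 scale (SE of the limma fit, n = 3 per group), a 5.22-fold change (adjusted p = 0.0160). Its call ended under 5 of the 24 alternatives, among them without KO replicate 1 or WT replicate 3 at 3 h. S1pr4, a related receptor, measured 6.84, 7.08 and 7.19 in KO, against 9.27, 8.0 and 8.44 in WT, and fell by 1.53 ± 0.22, or 2.89-fold (adjusted p = 0.00481). Ccr2, a chemokine receptor of inflammatory homing, measured 4.09, 3.55 and 3.85 in KO, against 6.37, 5.20 and 6.01 in WT, and fell by 2.03 ± 0.37, or 4.10-fold (adjusted p = 0.0198). Of 22 tested chemokine receptors and trafficking genes 4 fell and 1, Ccr8, rose, and the median was -0.40. Called lower and higher were 0.748% and 0.298% of all genes. In the whole list 1, 2 and 3 falls were called without KO replicate 1, 2 or 3 at 3 h. Without WT replicate 1, 2 or 3 the falls in the list were 2, 9 and 1.

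Of 32 genes of naive and resting T cells, many of them driven by FOXO1 and KLF2 and switched off on activation, 8 fell, 0 rose and 24 were not called, and the median difference was -0.63. In 16 of the 32 the KO values lay below all WT values, and in 1 above, beside 5.99% and 5.64% of all genes. As this list was drawn up with earlier results of these data known, the shares are a description. Of all genes 0.748% were called lower. Ypel3 measured 5.62, 6.12 and 6.28 in KO libraries, against 8.65, 6.92 and 7.96 in WT libraries, and fell by 1.83 ± 0.33 (limma adjusted p = 0.0166). Klf3, a repressor of the Krüppel-like family, measured 7.18, 7.75 and 7.46 in KO, against 9.03, 8.0 and 8.56 in WT, and fell by 1.07 ± 0.21 (adjusted p = 0.0288). Arl4c, a small GTPase, fell by 1.12 ± 0.23 (adjusted p = 0.0327), and Cdkn1b, the cell cycle inhibitor p27, by 0.78 ± 0.17 (adjusted p = 0.0452). The calls of Ypel3, Klf3, Arl4c and Cdkn1b ended under 6, 9, 11 and 16 of the 24 alternatives. Txnip, which restrains thioredoxin and glucose uptake, fell by 1.06 ± 0.22 (adjusted p = 0.0321), and Dgka, a kinase that removes the signal lipid diacylglycerol, by 0.70 ± 0.15 (adjusted p = 0.0398). Txnip and Dgka are named after their values were seen, and their calls ended under 12 and 16 of the 24 alternatives.

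With the replicate block 15 of the 32 genes were called lower. The added 7 were Il7r, the receptor chain for interleukin 7, Tcf7, the transcription factor TCF1, and Pik3ip1, Igfbp4, Evl, Tsc22d3 and Ets1. Il7r differed by -1.26 ± 0.35 (limma adjusted p = 0.118 without the block and 0.0228 with it, and 0.0167 to 0.453 over the alternatives). Without KO replicate 1, 2 or 3 at 3 h, 0, 4 and 4 of the 32 were called lower, and without WT replicate 1, 2 or 3, 1, 17 and 1. Without KO replicate 2 or WT replicate 2 of the 12 h libraries the count was 4. The median difference of the list ran from -0.37 without WT replicate 1 to -0.82 without WT replicate 2, and it kept its sign without each of the 3 h libraries in turn.

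Of the receptor chains for cytokines that act on TH1 cells, which make interferon-γ, 3 fell in KO cells. Ifngr1, the ligand-binding chain of the interferon-γ receptor, measured 9.34, 9.26 and 9.63 in KO libraries, against 11.50, 9.81 and 10.97 in WT libraries, and fell by 1.35 ± 0.28 (SE of the limma fit, n = 3 per group, adjusted p = 0.0319). Il12rb2, a chain of the interleukin 12 receptor, measured 7.19, 7.08 and 7.36 in KO, against 8.88, 7.79 and 8.34 in WT, and fell by 1.12 ± 0.25 (adjusted p = 0.0438). Il18r1, of the interleukin 18 receptor, measured 4.29, 4.71 and 6.50 in KO, against 7.97, 6.42 and 7.75 in WT. Its groups overlapped, since KO replicate 3 lay above WT replicate 2, and the gene fell by 2.21 ± 0.48 (adjusted p = 0.0398). The calls of Ifngr1, Il12rb2 and Il18r1 ended under 10, 14 and 14 of the 24 alternatives. These 3 genes were the falls among 21 tested TH1 genes, of which 0 rose, 0 had a positive difference and 8 had KO values below all WT values (median -0.42). Of all 12436 genes 6182 had a positive difference, 5.99% had KO values below all WT values and 0.748% were called lower. As the TH1 list was drawn up with earlier results of these data known, this is a description. Eomes, a T-box factor of cytotoxic and TH1 cells, differed by -0.64 ± 0.27 (adjusted p = 0.452).

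Of 38 tested cytokine receptor chains and JAK-STAT regulators 5 fell and 0 rose (median -0.11), beside 0.748% and 0.298% of all genes. Beside Ifngr1, Il12rb2 and Il18r1 these were Il10ra, of the interleukin 10 receptor, and Pim2, a kinase induced by STAT5. Il10ra measured 7.40, 7.06 and 7.74 in KO libraries, against 8.76, 8.20 and 8.11 in WT libraries, and fell by 0.96 ± 0.20 (limma adjusted p = 0.0366). Pim2 fell by 0.61 ± 0.13 (adjusted p = 0.0389). The calls of Il10ra and Pim2 ended under 14 and 15 of the 24 alternatives. Il12rb1, also in the TH1 list, and Il7r were called lower with the replicate block and Il2ra, the high-affinity chain of the interleukin 2 receptor, higher. Without KO replicate 1 or 2 or WT replicate 1 or 3 at 3 h, or KO replicate 2 at 12 h, 0 of the 38 and 0 of the 21 TH1 genes were called. Without KO replicate 1, WT replicate 2 or WT replicate 3 of the 12 h libraries 1 of each list was called, and without WT replicate 2 at 3 h, 8 and 5.

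Of the interferon-induced GTPases 3 fell in KO cells. Gbp2, one of the guanylate-binding proteins that attack pathogens inside cells, measured 10.37, 10.34 and 10.79 in KO libraries, against 13.04, 11.49 and 12.15 in WT libraries, and fell by 1.73 ± 0.27 (SE of the limma fit, n = 3 per group), a 3.32-fold change (adjusted p = 0.00709). Gbp3 measured 8.04, 7.94 and 8.49 in KO, against 9.62, 8.80 and 9.02 in WT, and fell by 0.99 ± 0.21 (adjusted p = 0.0362). Gbp5 measured 10.51, 10.40 and 10.63 in KO, against 11.90, 10.97 and 11.17 in WT, and fell by 0.84 ± 0.18 (adjusted p = 0.0410). The calls of Gbp2, Gbp3 and Gbp5 ended under 2, 12 and 16 of the 24 alternatives. Of 17 tested Gbp and IRG genes these 3 fell, 0 rose, 0 had a positive difference and 9 had KO values below all WT values (median -0.51). Over all 12436 genes 6182 differences were positive, 5.99% had KO values below all WT values and 0.748% were called lower. As the Gbp and IRG list was drawn up with earlier results of these data known, this is a description. With the replicate block Gbp4 and Igtp were called lower too, which made 5. Without KO replicate 1 or 2 or WT replicate 1 or 3 at 3 h, or replicate 2 of either genotype at 12 h, 1 was called, and without KO replicate 3 at 3 h, 5. Gbp2, Gbp3 and Gbp5 lie within 1 stretch of chromosome 3 and have similar sequences, so reads may be shared between them.

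Of 33 type I interferon response genes only Samhd1, an enzyme that breaks down deoxynucleotides, was called, beside 1.05% of all genes. It measured 10.71, 11.06 and 11.25 in KO libraries, against 12.68, 11.77 and 12.26 in WT libraries, and fell by 1.23 ± 0.17 (limma adjusted p = 0.00308). The list's median was -0.21, and Oasl2, Oas2 and Ifi44 differed by -0.49 ± 0.34, -0.39 ± 0.30 and 0.62 ± 0.35 (adjusted p = 0.762, 0.808 and 0.681). The median of this list was -0.07 without KO replicate 1, -0.06 without KO replicate 2 and -0.05 without WT replicate 3.

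Of the Ms4a family of membrane proteins 3 members fell, by less than 2-fold. Ms4a4b, expressed in resting T cells and TH1 cells of the mouse, measured 12.76, 12.58 and 12.83 in KO libraries, against 13.39, 13.23 and 13.32 in WT libraries, and fell by 0.58 ± 0.07 (limma adjusted p = 0.00129). The WT libraries lay close together here, all above the KO libraries. Ms4a4c measured 9.06, 8.81 and 9.24 in KO, against 9.82, 9.69 and 9.82 in WT, and fell by 0.74 ± 0.13 (adjusted p = 0.0166). Ms4a6b measured 13.96, 13.61 and 13.87 in KO, against 14.34, 14.20 and 14.18 in WT, and fell by 0.43 ± 0.08 (adjusted p = 0.0198). These 3 neighbours on chromosome 19 were the calls among 11 tested Ms4a and Slfn genes, with a median of -0.14. Called lower were 0.748% of all genes. Without KO replicate 2, WT replicate 1 or WT replicate 3 at 3 h Ms4a4b alone was called. Gimap7, a GTPase of lymphocyte survival, measured 9.08, 9.35 and 9.42 in KO, against 10.13, 10.15 and 9.78 in WT, and fell by 0.74 ± 0.16 (adjusted p = 0.0370), and it was the 1 call among 8 Gimap genes. The call of Gimap7 ended without any 1 of the 3 h libraries and without replicate 2 of KO or replicate 1 of WT at 12 h.

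The remaining named falls were in genes of various roles. Lgmn, the lysosomal protease legumain, measured 4.58, 3.91 and 4.87 in KO libraries, against 7.15, 6.05 and 6.63 in WT libraries, and fell by 2.16 ± 0.33 (SE of the limma fit, n = 3 per group), a 4.46-fold change (adjusted p = 0.00709). Smpdl3a, a lysosomal phosphodiesterase, measured 4.33, 3.96 and 4.80 in KO, against 6.51, 5.55 and 6.51 in WT, and fell by 1.83 ± 0.28, or 3.55-fold (adjusted p = 0.00709). Both calls held without each of the 12 libraries in turn. These were the 2 calls among 35 tested lysosome genes, whose median was -0.01, beside 0.748% of all genes called lower. Ctdsp2, a small phosphatase, measured 8.11, 8.27 and 8.57 in KO, against 10.93, 9.09 and 10.05 in WT, and fell by 1.70 ± 0.29 (adjusted p = 0.0159). Cep97, a centriole protein, fell by 1.55 ± 0.32 (adjusted p = 0.0350), Calcoco1 fell by 1.77 ± 0.38 (adjusted p = 0.0366) and Mturn fell by 1.71 ± 0.39 (adjusted p = 0.0493). The calls of Ctdsp2, Cep97, Calcoco1 and Mturn ended under 6, 13, 13 and 16 of the 24 alternatives. Bambi-ps1 fell by 2.00 ± 0.41 (adjusted p = 0.0340), but it is a processed pseudogene whose reads may come from its parent gene, so its value is uncertain. Tnfsf8, the ligand of CD30, fell by 0.43 ± 0.08 (adjusted p = 0.0198), and Tnfaip3, the NF-κB inhibitor A20, by 0.34 ± 0.08 (adjusted p = 0.0456). The calls of Bambi-ps1, Tnfsf8 and Tnfaip3 ended under 10, 7 and 16 of the 24 alternatives.

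In the lists of activation, growth and stress genes at most 1 member each was called, beside 1.05% of all genes. At that share lists this small hold few calls, so the counts do not set these classes apart. Of 31 early activation genes Tnfaip3 alone was called, with Il2ra higher as well under the replicate block, and of 38 cell cycle genes Cdkn1b alone. Of 25 MYC and ribosome biogenesis genes 0 were called, and Myc itself differed by -0.20 ± 0.07 (limma adjusted p = 0.312). Of 13 heat shock genes 0 were called and 1, Hspa1a, was called with the replicate block; it shares most of its sequence with Hspa1b, which makes both values uncertain. Of 22 TH2 and regulatory T cell genes Ccr8 alone was called. With the replicate block Nt5e and Il2ra were called higher too and Nrp1 lower. Of 26 chemokine and cytokine genes Ccl1 rose and Tnfsf8 fell, and with the block Xcl1 was called higher and Il3 lower. Il10 differed by -1.28 ± 0.33 (adjusted p = 0.0915).

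**Figure D3:**
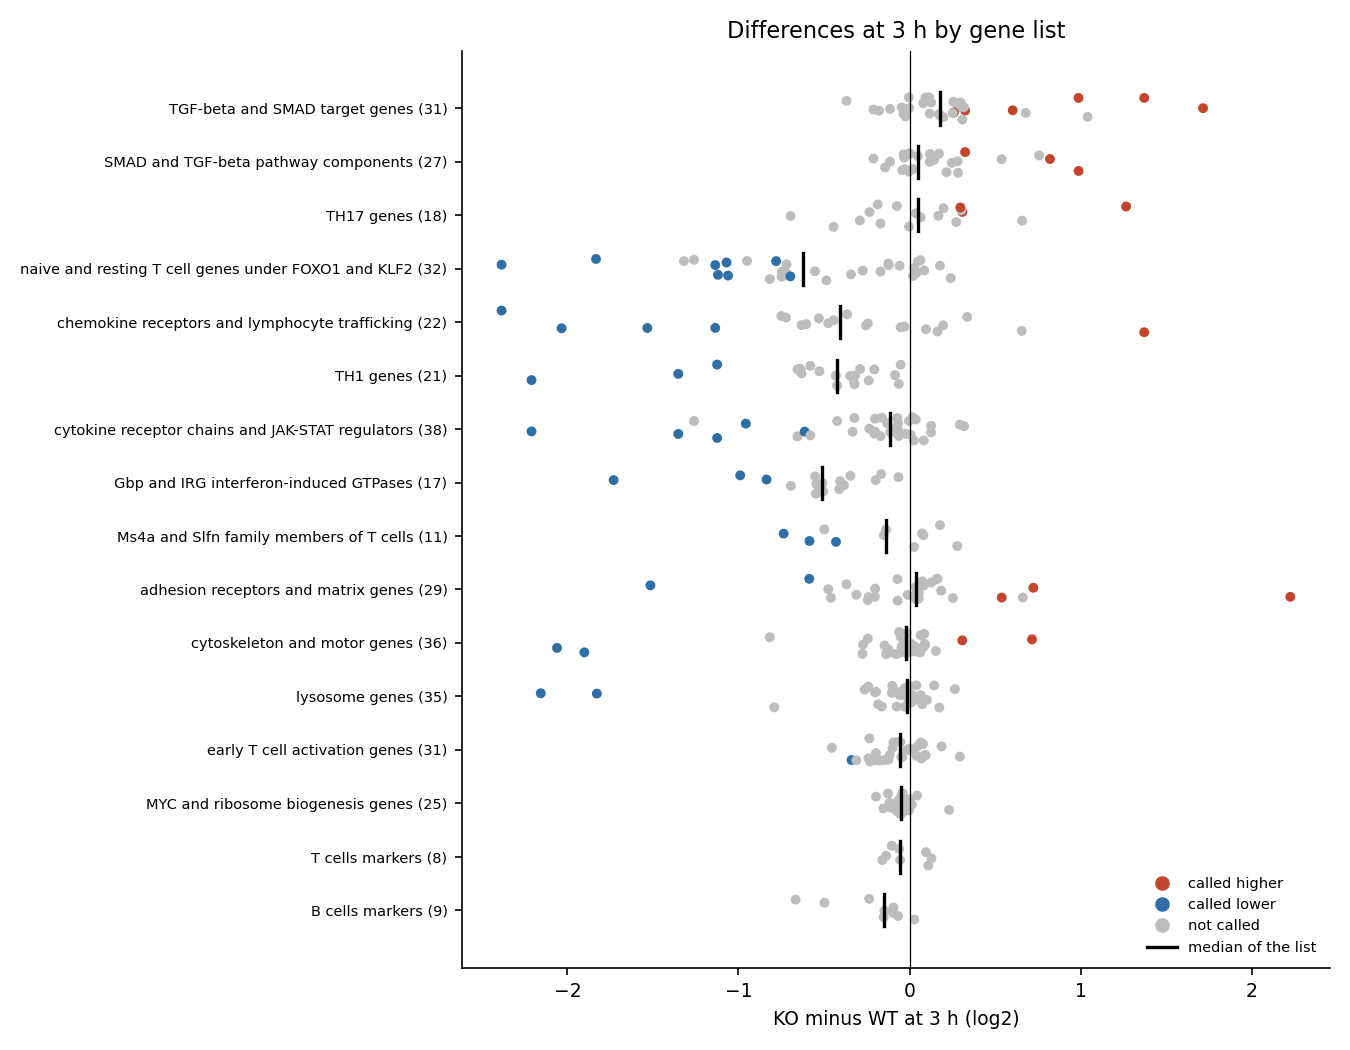
Difference between KO and WT at 3 h (log2, horizontal axis) for the tested genes of 16 lists (rows, number of genes in brackets), with called rises in red, called falls in blue, uncalled genes in grey and a bar at the median of the list. Median bars lie at -0.63 for naive and resting T cell genes, -0.51 for Gbp and IRG genes and -0.42 for TH1 genes, and at 0.18 for TGF-β and SMAD target genes.

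Markers of other cells were measured beside these falls. The 9 B cell markers summed to between 8.75 and 8.93 in KO libraries and between 8.93 and 9.26 in WT libraries, and 0 of 9 were called. Of the 8 CD8 T and NK cell markers 5 were tested and 0 called, with sums over all 8 of 10.36 to 10.81 in KO and 10.60 to 10.75 in WT, and the NK markers Klrk1, Klrb1c and Ncr1 lay below the mean of 3. The genes listed as γδ T and NKT cell markers, Blk, Zbtb16 and Sox13, summed to between 4.27 and 4.96 in KO and between 5.14 and 5.75 in WT. Blk was the highest of them, with a mean of 4.20 over the 12 libraries, and is not confined to these cells. Zbtb16 and Sox13, with means of 0.865 and 2.48, overlapped between KO and WT, so the sums do not show a shift of these cells. Blk, the one of them that was tested, differed by -0.87 ± 0.32 (limma adjusted p = 0.331). All 12 myeloid and dendritic markers, of which 4 were tested, summed to between 6.45 and 6.97 in KO and between 6.48 and 7.07 in WT. The part of B cells and γδ T cells in the falls was not tested.

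The falls shared a pattern within the WT libraries that the rises did not have. Over the 93 falls the mean level was 8.16, 8.20 and 8.34 in KO replicates 1 to 3, against 9.71, 8.87 and 9.28 in WT replicates 1 to 3. Over the 37 rises it was 11.68, 11.64 and 11.66 in KO, against 11.03, 10.98 and 11.00 in WT. Thus the WT libraries differed among themselves in the genes that fell and were nearly level in the genes that rose. The median SD of a falling gene was 0.18 in KO and 0.45 in WT, against 0.13 in KO and 0.12 in WT for all genes and 0.08 in KO and 0.09 in WT for the rises. WT replicate 1 was the highest WT library in 79 of 93 falls and WT replicate 2 the lowest in 78. The order of WT replicates 1, 3, 2 from high to low held in 72 of 93 falls (77.4%), in 10 of 37 rises (27.0%) and in 17.9% of all genes. Since the calls used these same values, this is a description. The naive and resting list showed it too, with means of 10.56, 10.72 and 10.78 in KO, against 11.64, 10.94 and 11.24 in WT.

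**Figure D4:**
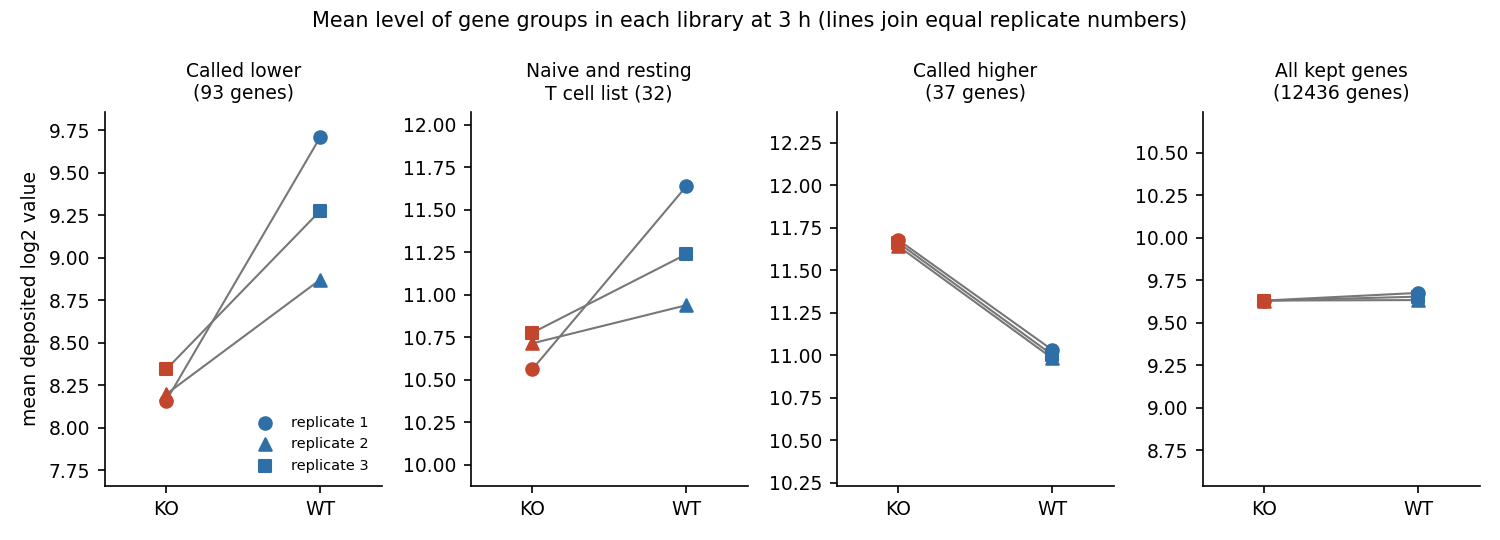
Mean deposited log2 value (vertical axes, all of the same span) of the 93 genes called lower, the 32 naive and resting T cell genes, the 37 genes called higher and all 12436 genes in each 3 h library, KO left of WT, with lines joining equal replicate numbers. WT replicate 1 stands highest at 9.71 and WT replicate 2 lowest at 8.87 among WT libraries for the falls, while the libraries of a genotype nearly coincide for the rises and for all genes.

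The size of the falls followed this order. The median KO minus WT difference of the 93 falls was -1.45 between the replicate 1 libraries, -0.58 between the replicate 2 libraries and -0.80 between the replicate 3 libraries, against 0.56, 0.60 and 0.51 for the rises. The first principal component of the 6 libraries carried 33.0% of their variance. Its scores were -4.02, -20.2 and -2.25 in KO, against 25.89, -10.93 and 11.5 in WT, with the replicate 2 library lowest in each genotype. All tested genes entered it, Xist and Ddx3y among them, in which replicate 2 stands apart. The part of sex-linked genes in these scores was not tested. The scores of the 2 genotypes overlapped, and between equally numbered libraries KO scored below WT each time. Which property of the cells or the RNA sets WT replicate 1 apart was not tested.

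At 12 h the rises were mostly still present and most falls were small. All 37 genes that rose at 3 h had a positive difference at 12 h, and 18 were called higher there, while 0.499% of all genes were called higher at 12 h (62) and 0.169% lower (21). Of the 93 falls 81, or 87.1%, had a negative difference at 12 h and 7 were called lower, beside 56.7% of all genes with equal sign at the 2 times. The median difference at 12 h was 0.38 for the rises and -0.23 for the falls. In group medians, the falling genes stood at 9.33 in KO and 9.63 in WT at 12 h, against 8.34 in KO and 9.24 in WT at 3 h. The rising genes stood at 11.62 in KO and 11.07 in WT at 12 h, against 11.81 in KO and 11.03 in WT at 3 h. Genes chosen for a large difference at 3 h tend to show a smaller one in other libraries, and 24 of 37 rises and 88 of 93 falls lay closer to 0 at 12 h.

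**Figure D5:**
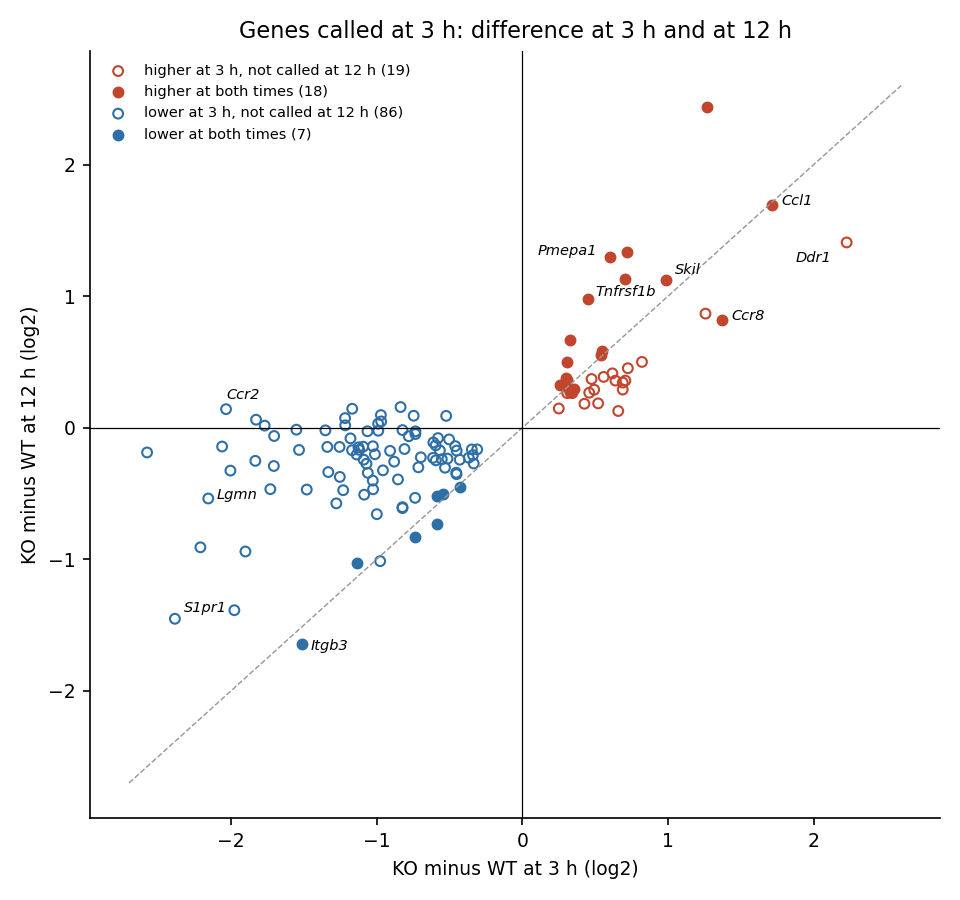
KO minus WT at 12 h (log2, vertical axis) against KO minus WT at 3 h (log2, horizontal axis) for the 130 genes called at 3 h, filled where called at both times, with a dashed line of equal difference. The 93 falls lie mostly near 0 at 12 h, with Itgb3 on the line, and the 37 rises all lie above 0.

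Single genes show the range. Pmepa1 had a difference of 1.29 ± 0.07 at 12 h (SE, n = 3 per group, limma adjusted p = 6.1e-08), against 0.60 ± 0.07 at 3 h. Ccr8 had 0.81 ± 0.10 at 12 h (adjusted p = 0.000338), against 1.37 ± 0.10 at 3 h, and Skil 1.12 ± 0.10 (adjusted p = 1.63e-05), against 0.99 ± 0.10. Among the falls, Itgb3 kept a difference of -1.64 ± 0.26 at 12 h (adjusted p = 0.00505), while Ccr2 had 0.14 ± 0.37 and Smpdl3a 0.06 ± 0.28 (adjusted p = 1 for both). The difference between the times was itself tested for each gene, and 0 of 12436 passed (limma, smallest adjusted p = 0.0552, for Pmepa1). At an unadjusted p under 0.05 it was met by 497 genes in all, 12 of the 37 rises and 59 of the 93 falls. With the replicate block 3 genes passed, and without WT replicate 2 at 3 h 28 did.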

How the data were processed

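RNA of 12 libraries was sequenced, 3 each of KO and WT cells at 3 h and at 12 h; groups follow the sample labels. Libraries were made with a TruSeq kit that does not mark strand, so overlapping and antisense genes cannot be told apart. The deposited values are log2 expression values that the authors normalized. Per the submitters' processing notes, Trim Galore, STAR, featureCounts and DESeq2 were used with the build mm10. Versions, settings and the annotation are not given in the sources here. The table has 24538 rows, of which 5663 were at 0 in all libraries and 0 in only some, and 3989 had a negative mean. This is the form of a regularised log, which understates differences of low genes. No counts can be recovered, so depth is unknown and precision comes from the spread between 3 libraries. Of the rows 26 carried dates for names; 19 of them were tested and not named.

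With limma 3.58.1 in R 4.3.3, the means of the 4 groups were fitted to all 12 libraries together, with a prior variance that follows the mean level (eBayes with trend). Contrasts were two-sided, p-values were adjusted by Benjamini-Hochberg over 12436 genes, and genes were called at an adjusted p under 0.05. Errors of differences are SE and other errors SD. Fold values are 2 to the power of the log2 difference.

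The named genes were Smad4, Ski and Skil, the 15 largest called rises and 15 largest called falls whose groups did not overlap and whose higher mean was at least 5, and up to 5 members of each of 31 lists, called members first. A few genes that qualify are counted but not reported here, as are gene models that lack a proper name. The comparison, its lists and its rule were chosen with earlier results of these data known. The lists were described by counts and medians, with no set test; marker sums are log2 of summed linear values. Gene positions are from GENCODE on GRCm38, and promoters from RefSeq on GRCm38.p6. The script was tested on simulated data.

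Whether replicate numbers pair the libraries was checked with the correlation of deviations from the group mean between KO and WT libraries of 1 number, and for replicates 1 to 3 it came to 0.194, 0.402 and 0.347 in the 3 h libraries, and 0.174, 0.5 and 0.186 in those of 12 h. All are positive. Of unequal numbers, KO replicate 3 with WT replicate 1 gave 0.15 and KO replicate 1 with WT replicate 3 gave 0.084 at 12 h. At 3 h these 2 pairs gave -0.041 and 0.013. Replicate 2 also stands apart in Xist and Ddx3y, and the part of sex-linked genes in the correlations was not tested. The numbers are thus not shown to mark pairs, and results with the number as a block are given where they move a call. The alternatives were a prior without trend or robust, no filter or a mean of at least 5, quantile normalization, median centring, the 3 h libraries alone, a replicate block, array weights, leaving out all replicate 2 libraries, and leaving out each library.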

Additional observations from a re-analysis of the deposited data

How the results depend on the processing

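Of 130 genes called at 3 h (37 higher, 93 lower), 111 were called with a robust prior, 121 at a mean of at least 5, 120 after quantile normalization and 139 after median centring. Without the trend in the prior 9 were called (7 and 2), without the filter 14 (12 and 2), in the 3 h libraries alone 32 (17 and 15) and with array weights 54 (27 and 27). The replicate block gave 200 (56 and 144), of which 129 were among the 130, and no named call was lost with it. Blocks chosen after seeing the data gave 248 (78 and 170) within each time and 127 (48 and 79) in the 3 h libraries alone. Without all replicate 2 libraries 117 were called, 16 higher and 101 lower. Leaving out 1 library gave 22 to 261 (12 to 36 higher, 10 to 225 lower). At 12 h 83 genes were called, and 39 without the trend, 40 without the filter, 167 with array weights, 22 without the replicate 2 libraries, 156 with a block within each time and 49 to 102 without 1 library. The difference between the times was called for 0 genes (497 at an unadjusted p under 0.05), and for 2 with a robust prior, 3 without the filter, 2 after quantile normalization, 3 with the replicate block, 7 with the block within each time and 0 to 28 without 1 library. No named call turned its direction; for genes called in neither fit direction was not compared. The cause of these shifts was not tested. Unknown depth limits what can be said of genes with low values.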
